A study of Mus musculus with 9 samples.

Results

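The genes described here are 37 genes of DNA replication and of the G1/S transition of the cell cycle, followed across mouse mammary tumours grown from 3 cell lines, 4T1, 66cl4 and 67NR. They were taken from a list of gene names. Each gene was read from its brightest probe set, the one with the highest mean signal over the 9 arrays among those annotated to that gene alone. All 37 genes were measured and all 37 passed the filter on low signals, out of 18194 genes measured and 13410 genes tested.

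A cell prepares a chromosome origin for replication in G1, when the origin recognition complex, Cdc6 and Cdt1 load the MCM helicase onto DNA. Cyclin D with Cdk4 and cyclin E with Cdk2 then phosphorylate the retinoblastoma protein, which releases E2F transcription factors to switch on many of the genes for origin firing, DNA synthesis and nucleotide supply. In a tumour these transcripts are commonly used as a sign of cells in or near S phase.

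Tumours were grown in female BALB/c mice, 7 to 9 weeks old per the labels, by placing 1000000 viable cells of the 4T1/CMVLUC, 66cl4/CMVLUC or 67NR/CMVLUC line in a mammary gland. The 3 lines come from the same mouse mammary tumour and differ in their ability to spread, with 4T1 metastatic to several organs, 66cl4 to lung and 67NR not metastatic. Primary tumours were taken on day 15, the tumour area was collected by laser capture microdissection, and total RNA of each tumour was hybridized to 1 Affymetrix array. There were 3 mice for each line, and a mouse is named by its line and the number in its label. Each group is 1 cell line, so a difference between groups is a difference between these lines and not between classes of tumour.

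The deposited values are log2 signals, so a difference of 1 is a 2-fold difference. In these bulk samples, fewer cells of a type and less RNA per cell cannot be told apart. The captured tissue differed between lines in markers of cell types. Epithelial markers, 10 of 10 measured, had a summed linear signal of 29237 to 34944 in 4T1 tumours, 7559 to 9620 in 66cl4 tumours and 534 to 587 in 67NR tumours. In 66cl4 against 67NR 1 of the 10 passed, Krt8 (keratin 8), with a log2 difference of 6.27, and the median over the 10 was 0.13. Cdh1 (E-cadherin) was not above the background of the control probe sets in any 66cl4 or 67NR tumour. Macrophage markers, also 10 of 10, summed to 20922 to 24945 in 4T1 tumours, 50054 to 64219 in 66cl4 tumours and 45254 to 49994 in 67NR tumours. Mast cell markers summed to 498 to 666 in 4T1, 622 to 765 in 66cl4 and 17445 to 24446 in 67NR. Endothelial markers summed to 1699 to 1994 in 4T1, 1204 to 1497 in 66cl4 and 4240 to 5696 in 67NR. Which cells carried these markers, the tumour cells or others, cannot be told here. The part of the markers and their cells in the differences below was not tested.

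E2F factors act at promoters of many replication genes, and the promoters of 5 genes are shown here because they hold an E2F motif and, among the genes that do, differed most clearly among the lines by the F-test. The RefSeq table (GRCm38.p6) gave a promoter for 29 of the 37 genes, from 250 bases before to 50 bases after the start of the transcript. Capitals mark the E2F motif, taken as TTTCCCGC, TTTCGCGC, TTTGCCGC or TTTGGCGC on either strand.
Lig1, chr7:13278576-13278875, plus strand: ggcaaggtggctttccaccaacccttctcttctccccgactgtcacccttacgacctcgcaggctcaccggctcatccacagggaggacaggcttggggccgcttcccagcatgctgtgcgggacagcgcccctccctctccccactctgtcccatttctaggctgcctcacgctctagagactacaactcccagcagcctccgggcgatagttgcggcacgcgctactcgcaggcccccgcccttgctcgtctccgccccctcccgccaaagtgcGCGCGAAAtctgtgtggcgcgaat
Rfc3, chr5:151651159-151651458, minus strand: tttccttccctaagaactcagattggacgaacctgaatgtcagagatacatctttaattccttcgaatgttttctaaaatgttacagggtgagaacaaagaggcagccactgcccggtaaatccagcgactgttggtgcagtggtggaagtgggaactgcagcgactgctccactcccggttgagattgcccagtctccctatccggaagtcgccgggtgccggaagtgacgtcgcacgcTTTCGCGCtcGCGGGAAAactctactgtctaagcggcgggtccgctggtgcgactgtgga
Cdt1, chr8:122567765-122568064, plus strand: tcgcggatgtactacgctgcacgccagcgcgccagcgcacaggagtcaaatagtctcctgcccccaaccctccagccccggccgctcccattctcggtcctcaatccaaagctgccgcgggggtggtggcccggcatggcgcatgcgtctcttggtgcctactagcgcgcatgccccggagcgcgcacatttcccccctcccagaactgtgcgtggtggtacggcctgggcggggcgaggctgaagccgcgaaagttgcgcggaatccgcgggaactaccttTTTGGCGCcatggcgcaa
Pola1, chrX:93632106-93632405, minus strand: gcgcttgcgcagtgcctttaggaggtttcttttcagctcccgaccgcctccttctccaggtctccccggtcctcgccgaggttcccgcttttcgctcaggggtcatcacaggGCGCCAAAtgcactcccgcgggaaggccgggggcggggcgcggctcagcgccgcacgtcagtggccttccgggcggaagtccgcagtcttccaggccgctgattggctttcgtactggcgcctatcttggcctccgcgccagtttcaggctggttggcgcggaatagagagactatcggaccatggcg
Cdk2, chr10:128705002-128705301, minus strand: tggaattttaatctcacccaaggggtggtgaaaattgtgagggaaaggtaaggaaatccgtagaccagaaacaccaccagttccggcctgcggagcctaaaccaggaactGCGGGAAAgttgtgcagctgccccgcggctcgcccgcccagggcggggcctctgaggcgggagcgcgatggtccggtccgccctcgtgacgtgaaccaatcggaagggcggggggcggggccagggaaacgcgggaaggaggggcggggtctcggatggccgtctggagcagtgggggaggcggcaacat
Each sequence reads 5′ to 3′ on the strand of its gene. Counted with the start as 0, the motif began at 26 in Lig1, at -10 and 0 in Rfc3, at 32 in Cdt1, at -138 in Pola1 and at -140 in Cdk2. The table lists 3 promoters for Lig1, and the motif stood in this 1 alone.

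An E2F motif stood in the promoter of 11 of the 29 genes (37.9%), against 704 of the 27025 genes of the whole table (2.6%). The other 6 of these 11 were Mcm3, Mcm5, Mcm6, Mcm7, Orc1 and Cdc6. The letters CCAAT, on either strand, stood in a promoter of 17 of the 29 genes (58.6%), against 41.1% of all genes. The CHR motif of many mitotic promoters, searched as TTTGAA on either strand, stood in 3 of the 29 genes (10.3%), against 20.2% of all genes. Neither CCAAT nor the CHR letters form part of an E2F motif. The median GC content of the 33 promoters of the 29 genes was 61.3%, against 52.7% over all promoters, and motif shares were not adjusted for it. Such a match describes letters in a window and no binding was measured.

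Taken gene by gene, replication and G1/S genes took several different orders among the lines. Ligase Lig1, the clamp loader subunits Rfc3 and Rfc5, the origin protein Orc6 and the licensing factor Cdt1 were higher in both 4T1 and 66cl4 tumours than they were in the 67NR line, while the kinase Cdk4 was lower in both. Thymidine kinase Tk1, cyclin Ccne2, polymerase Pola1 and the licensing inhibitor Gmnn were highest in 66cl4 tumours, above both other lines. The assembly factor Chaf1b was higher in 4T1 tumours than in either other line, whereas Prim1 and Cdk2 were lower there than in both. For 19 of the 37 genes no pair of lines passed the test, among them 5 of the 6 MCM genes and Pcna, the sliding clamp. The share of all genes without a passing pair was not counted. A moderated F-test over the 3 lines called 17 of the 37 genes (45.9%, against 56.6% of all genes tested).

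In the comparison of 4T1 with 67NR tumours, 12 of 37 genes passed the limma test at an adjusted p under 0.05 (32.4%), against 39.9% of all genes tested. Of these, 9 were higher (24.3%, against 19.4% of all genes) and 3 lower (8.11%, against 20.5%). The median difference over the 37 genes was 0.24 on the log2 scale, against -0.03 over all genes tested. Calls for Orc6, Gins2, Prim1, Rfc3, Rfc5, Lig1 and Cdk4 held in each of 9 refits that left out 1 array. The count of calls was 7 without 67NR mouse 2 (18.9%, against 32.7% of all genes), and the median was 0.15 without 67NR mouse 1. The number in the name of each array's raw data was higher for every 67NR array than for any other array. With that number as a covariate 5 genes were called, all higher (Orc6, Gins2, Rfc5, Lig1 and, newly, Mcm3; 13.5%, against 19.8% of all genes), and the median difference was 0.43. With the mean signal of the hybridization controls, transcripts added to each sample before it is put on the array, as a covariate 9 genes were called higher and none lower (24.3%, against 16.0% of all genes). Cdt1, Prim1, Cdk4, Cdk2 and Chaf1b then lost their calls, Tk1 and Slbp gained one, and the median was 0.50. The hybridization controls were lower on every 4T1 array (10.30 to 10.72) than on any 67NR array (10.87 to 11.47). Neither covariate overlapped between 4T1 and 67NR, so line and covariate cannot be told apart there except through the slope within lines.

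In the comparison of 66cl4 with 67NR tumours, which shares the same 67NR arrays, 12 of 37 genes passed (32.4%, against 36.1% of all genes). There were 10 higher genes (27.0%, against 20.0%) and 2 lower genes (5.41%, against 16.0%), with a median difference of 0.22, against 0.01 over all genes. Orc6, Cdt1, Pola1, Lig1, Tk1 and Cdk4 kept their calls in each of the 9 refits that left out 1 array, and the other 6 did not. With the raw data number as a covariate Cdt1, Cdc45, Rfc3 and Cdk4 lost their calls, and with the hybridization controls Cdc45 did. The counts were then 10 (27.0%, against 28.2% of all genes) and 15 (40.5%, against 28.8%), and the medians 0.40 and 0.35. The count of calls was 6 without 67NR mouse 2 (16.2%, against 28.0% of all genes). It was 7 without 67NR mouse 1 or 66cl4 mouse 2 (18.9%, against 28.9% and 29.1%). Without 67NR mouse 3 it was 15 (40.5%, against 29.6%), a share above that of all genes. The median was 0.11 without 67NR mouse 1, 0.12 without 66cl4 mouse 2 and 0.35 without 67NR mouse 3.

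Between 4T1 and 66cl4 tumours, 7 of 37 genes passed (18.9%, against 41.3% of all genes). Of these, 1 was higher in 4T1 (2.7%, against 17.9%) and 6 were lower (16.2%, against 23.4%). The median difference was 0.01, against -0.03 over all genes. Tk1 and Ccne2 kept their calls in each refit that left out 1 array. The count of calls was 3 without 66cl4 mouse 3 (8.11%, against 34.1% of all genes). It was 4 without 4T1 mouse 2, 4T1 mouse 3 or 66cl4 mouse 2 (10.8%, against 35.3%, 38.2% and 34.5%). Without 67NR mouse 1 or 67NR mouse 3 it was 10 (27.0%, against 40.6% and 40.1%). With the raw data number as a covariate Gmnn, Pola1 and Prim1 lost their calls, which left 1 higher and 3 lower (10.8%, against 36.8% of all genes). With the hybridization controls Tk1 alone of the 7 kept its call and Rfc3, Rfc5 and Rrm2 gained one, so that 3 were higher and 1 lower (10.8%, against 28.9%). Without 66cl4 mouse 2 there were 2 higher and 2 lower. The moderated F-test over the 3 lines called 17 of 37 genes (45.9%), against 56.6% of all genes tested.

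**Figure D1:**
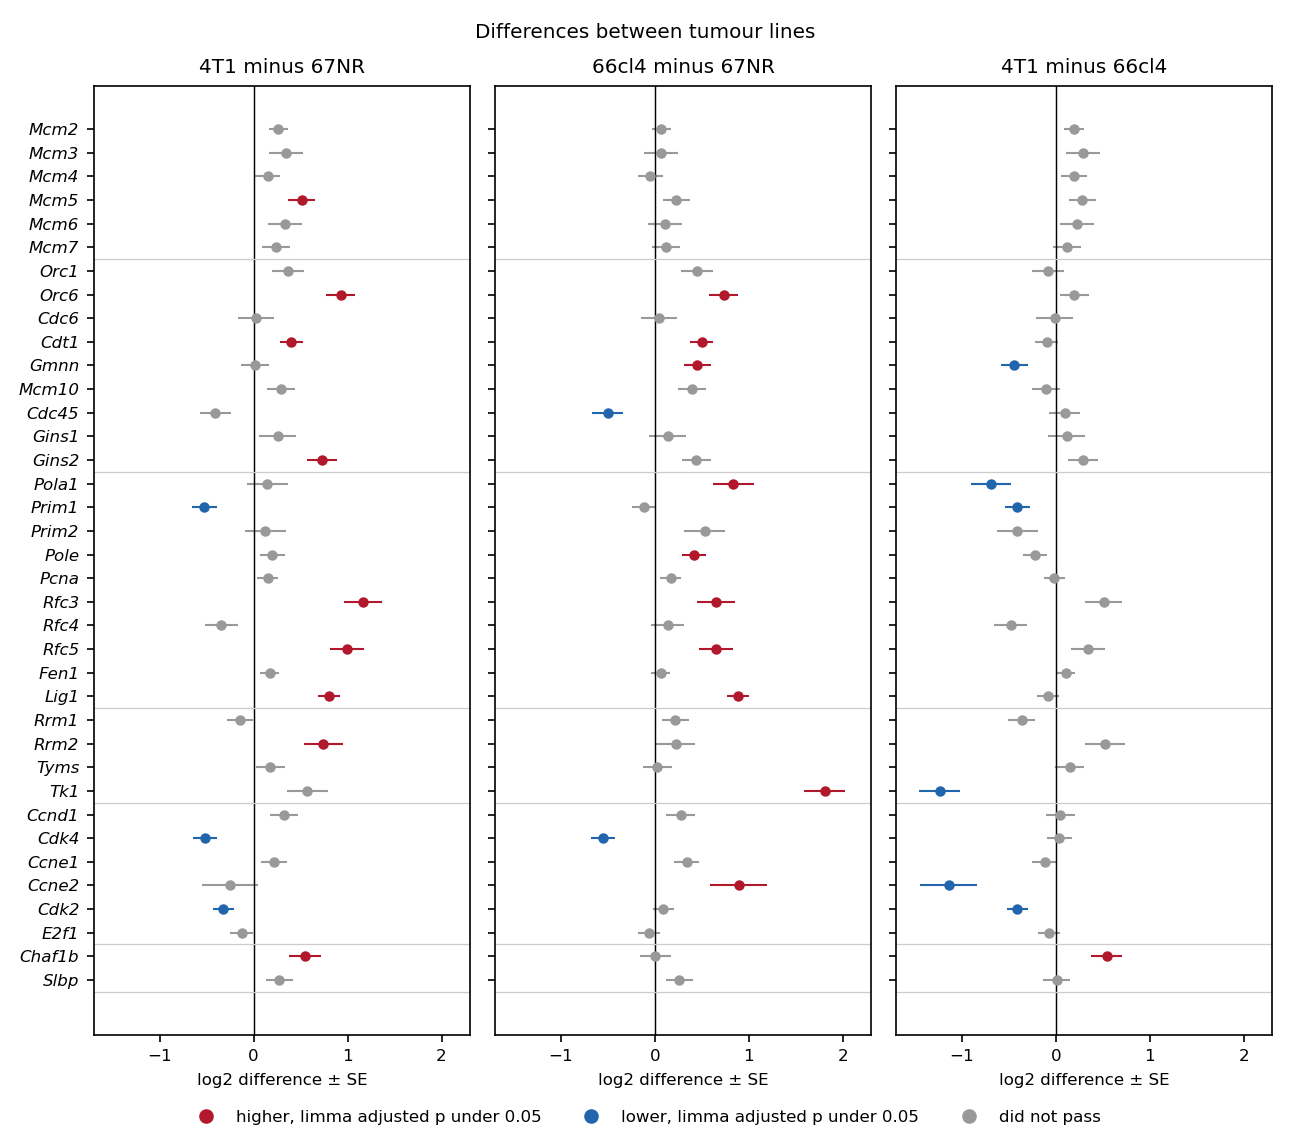
Log2 differences (horizontal axis, point, with the SE of the fit as whiskers) of the 37 genes in 3 comparisons, 3 mice per line, ordered by role. Red points are higher, blue points lower and grey points did not pass; Tk1 stands farthest to the right in 66cl4 minus 67NR, at 1.81, and the MCM genes at the top lie near 0 in that panel.

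**Figure D2:**
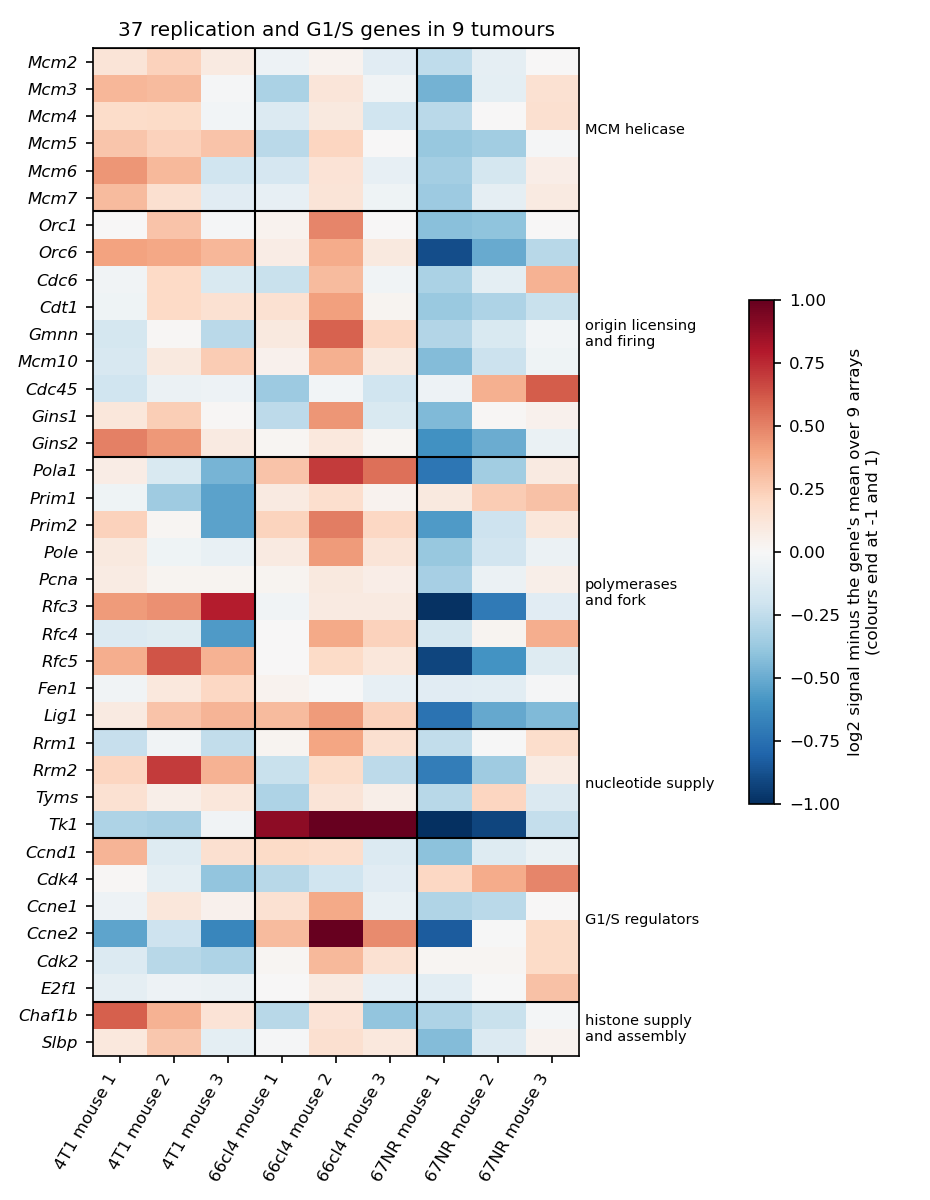
Log2 signal of each gene on each of the 9 arrays minus the gene's mean over the 9 arrays, with colours ending at -1 and 1. Rows are genes by role and columns are tumours; the column of 67NR mouse 1 is blue for nearly every gene, and that of 66cl4 mouse 2 is red for most.

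The MCM genes encode the ring of the replicative helicase. Of 6 genes, 1 passed as higher in 4T1 against 67NR (16.7%, against 39.9% of all genes), and with the brightest probe sets no MCM gene passed in the other comparisons (36.1% of all genes in 66cl4 against 67NR and 41.3% in 4T1 against 66cl4). Mcm5 had log2 signals of 10.51, 10.46 and 10.51 in 4T1 tumours, 9.96, 10.45 and 10.24 in 66cl4 tumours, and 9.85, 9.89 and 10.22 in 67NR tumours. Every 4T1 tumour lay above every tumour of the other lines, and the 66cl4 and 67NR tumours overlapped. Its difference between 4T1 and 67NR was 0.51 ± 0.14 (SE, 3 mice per line; adjusted p = 0.0178), a 1.42-fold higher signal. That call ended without 67NR mouse 1 (0.44, adjusted p = 0.0663) and without 67NR mouse 2 (0.46, adjusted p = 0.0667). All 3 probe sets of Mcm5 pointed the same way, with differences of 0.51, 0.71 and 0.72. Between 4T1 and 66cl4 the brightest had 0.28, and the other 2 passed in a limma fit over all probe sets (0.49, adjusted p = 0.0381, and 0.61, adjusted p = 0.00779).

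For Mcm2, Mcm3, Mcm4, Mcm6 and Mcm7 the differences between 4T1 and 67NR ran from 0.15 to 0.35, and those between 66cl4 and 67NR from -0.05 to 0.12. The 95% interval for Mcm2 between 4T1 and 67NR was 0.03 to 0.49, with an adjusted p of 0.0703. For Mcm7 it was -0.09 to 0.58, which does not show equal levels.

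Origin licensing and firing took in 9 genes, with 3 higher and none lower in 4T1 against 67NR, 3 higher and 1 lower in 66cl4 against 67NR, and 1 lower in 4T1 against 66cl4. These are 33.3%, 44.4% and 11.1% of the 9, against 39.9%, 36.1% and 41.3% of all genes. Orc6, a subunit of the origin recognition complex, had signals of 8.37, 8.35 and 8.30 in 4T1 tumours, 8.04, 8.34 and 8.07 in 66cl4 tumours, and 7.08, 7.46 and 7.69 in 67NR tumours. All 67NR tumours lay below all others, and 4T1 and 66cl4 overlapped. The difference from 67NR was 0.93 ± 0.15 in 4T1 (adjusted p = 0.00106) and 0.74 ± 0.15 in 66cl4 (adjusted p = 0.0046), folds of 1.90 and 1.67.

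Gins2, a subunit of the GINS complex that activates the helicase, had 8.85, 8.78 and 8.44 in 4T1 tumours, 8.37, 8.46 and 8.37 in 66cl4 tumours, and 7.75, 7.85 and 8.28 in 67NR tumours. Again no 67NR tumour reached a tumour of the other lines, while 4T1 mouse 3 lay among the 66cl4 tumours. Its difference from 67NR was 0.73 ± 0.16 in 4T1 (adjusted p = 0.00461), and 0.44 ± 0.16 in 66cl4, which did not pass (adjusted p = 0.053). Gins1, of the same complex, had differences of 0.25 and 0.14 and did not pass in either.

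Cdc45, the helicase cofactor that joins MCM and GINS, ran the other way. It had 7.87, 8.01 and 8.02 in 4T1 tumours, 7.70, 8.04 and 7.87 in 66cl4 tumours, and 8.02, 8.43 and 8.68 in 67NR tumours. 67NR mouse 2 and mouse 3 were above every other tumour, and 67NR mouse 1 was not. In 66cl4 the signal was lower than in 67NR, with a difference of -0.50 ± 0.16 (adjusted p = 0.0382), and the difference of -0.41 ± 0.16 in 4T1 did not pass (adjusted p = 0.0757). The 66cl4 call ended in 5 of 9 refits, those without 4T1 mouse 2, 66cl4 mouse 1, 66cl4 mouse 3, 67NR mouse 2 or 67NR mouse 3, with differences of -0.50 to -0.35 and adjusted p of 0.0503 to 0.132. In the fit over all probe sets the second probe set of Cdc45 passed in 4T1 against 67NR, at -0.30 (adjusted p = 0.0416). It did not pass in 66cl4 against 67NR, at -0.17 (adjusted p = 0.25).

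Cdt1, which brings the MCM ring to origins, was higher by 0.40 ± 0.12 in 4T1 (adjusted p = 0.0254) and by 0.50 ± 0.12 in 66cl4 (adjusted p = 0.0107) than in 67NR. Its signals ran from 10.70 to 10.94 in 4T1, from 10.77 to 11.15 in 66cl4 and from 10.37 to 10.52 in 67NR, with 67NR apart from both. The 4T1 call ended without 4T1 mouse 2, 4T1 mouse 3, 67NR mouse 1 or 67NR mouse 2, with differences of 0.35 to 0.40 and adjusted p of 0.0598 to 0.0835. A second probe set of Cdt1 passed against 67NR in the fit over all probe sets. It had 0.82 in 4T1 (adjusted p = 0.000837) and 0.55 in 66cl4 (adjusted p = 0.00949). Gmnn (geminin), which binds Cdt1 and blocks relicensing, was higher in 66cl4 than in 67NR by 0.45 ± 0.15 (adjusted p = 0.0355) and lower in 4T1 than in 66cl4, with a difference of -0.44 ± 0.15 (adjusted p = 0.0354). Without 66cl4 mouse 2 both Gmnn calls ended, at 0.31 (adjusted p = 0.122) and -0.30 (adjusted p = 0.123). The first also ended without 66cl4 mouse 3, 67NR mouse 1 or 67NR mouse 2 (0.39 to 0.50, adjusted p = 0.053 to 0.117). The second also ended without 4T1 mouse 1, 4T1 mouse 3, 66cl4 mouse 3 or 67NR mouse 2 (-0.49 to -0.38, adjusted p = 0.0529 to 0.099). Orc1, Cdc6 and Mcm10, which act in origin recognition, loading and firing, passed in no comparison, and Cdc6 differed by 0.03 and 0.04 from 67NR.

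The largest group, polymerases and fork proteins with 10 genes, had 3 higher and 1 lower in 4T1 against 67NR 5 higher and none lower in 66cl4 against 67NR, and 2 lower in 4T1 against 66cl4 (40%, 50% and 20%, against 39.9%, 36.1% and 41.3% of all genes). Rfc3 and Rfc5 are subunits of replication factor C, which loads the sliding clamp. Rfc3 had 8.53, 8.57 and 8.89 in 4T1 tumours, 8.08, 8.20 and 8.20 in 66cl4 tumours, and 7.12, 7.40 and 7.99 in 67NR tumours. Rfc5 had 8.72, 8.98 and 8.70 in 4T1 tumours, 8.36, 8.55 and 8.47 in 66cl4 tumours, and 7.43, 7.76 and 8.22 in 67NR tumours. For both genes the lines did not overlap, with 4T1 at the top, 66cl4 between and 67NR at the bottom.

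Rfc3 was higher than in 67NR by 1.16 ± 0.20 in 4T1 (2.23-fold, adjusted p = 0.00138) and by 0.65 ± 0.20 in 66cl4 (1.57-fold, adjusted p = 0.0296). Rfc5 was higher by 1.00 ± 0.18 in 4T1 (adjusted p = 0.00187) and by 0.65 ± 0.18 in 66cl4 (adjusted p = 0.0193). Between 4T1 and 66cl4 the differences of 0.51 for Rfc3 and 0.34 for Rfc5 did not pass (adjusted p = 0.0697 and 0.165). The second probe set of Rfc3 passed there, at 0.64 (adjusted p = 0.00721, fit over all probe sets), and the gene was called in 6 of the 20 alternatives. The calls in 66cl4 did not hold in every refit without 1 array. For Rfc3 it ended without each of the 66cl4 mice in turn, at 0.63 to 0.69, and without 67NR mouse 1 or 67NR mouse 2, at 0.46 and 0.60, with adjusted p of 0.0567 to 0.102 in all. For Rfc5 it ended without 66cl4 mouse 2, 66cl4 mouse 3, 67NR mouse 1 or 67NR mouse 2, with differences of 0.47 to 0.65 and adjusted p of 0.0501 to 0.0638. Rfc4, another subunit of the loader, had -0.34 ± 0.18 in 4T1 and 0.14 ± 0.18 in 66cl4 against 67NR and passed in no comparison. Between 4T1 and 66cl4 its difference was -0.48 ± 0.18 (adjusted p = 0.0517), with every 4T1 tumour below every 66cl4 tumour. There it was called in 7 of the 20 alternatives.

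Lig1, the ligase that seals Okazaki fragments, had 9.76, 9.96 and 10.01 in 4T1 tumours, 9.99, 10.10 and 9.90 in 66cl4 tumours, and 8.93, 9.16 and 9.23 in 67NR tumours. The 67NR tumours stood apart below both other lines, which overlapped. Its difference from 67NR was 0.80 ± 0.12 in 4T1 (1.74-fold, adjusted p = 0.000507) and 0.89 ± 0.12 in 66cl4 (1.85-fold, adjusted p = 0.00034). Fen1, the flap nuclease that acts before Lig1 on the same fragments, had the smallest range of the 37 genes over the 9 arrays, 0.32, and passed in no comparison.

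Pola1, the catalytic subunit of the polymerase that starts each strand, had 8.15, 7.92 and 7.61 in 4T1 tumours, 8.35, 8.77 and 8.62 in 66cl4 tumours, and 7.35, 7.73 and 8.16 in 67NR tumours. The 66cl4 tumours lay above all others, and 4T1 overlapped with 67NR. The signal was higher in 66cl4 than in 67NR by 0.84 ± 0.21 (adjusted p = 0.0129) and lower in 4T1 than in 66cl4, with a difference of -0.69 ± 0.21 (adjusted p = 0.027). This difference between 4T1 and 66cl4 ended without 4T1 mouse 2, 4T1 mouse 3, 66cl4 mouse 2 or 66cl4 mouse 3, with differences of -0.71 to -0.55 and adjusted p of 0.0573 to 0.0907.

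Prim1 is the catalytic primase subunit that works with Pola1, and its signals were 9.48, 9.17 and 8.99 in 4T1 tumours, 9.62, 9.69 and 9.56 in 66cl4 tumours, and 9.62, 9.78 and 9.82 in 67NR tumours. All 4T1 tumours were below all others. In 4T1 it was lower than in 67NR, with a difference of -0.53 ± 0.13 (adjusted p = 0.0101) and lower than in 66cl4, with a difference of -0.41 ± 0.13 (adjusted p = 0.0309). The difference from 66cl4 lost its call without 4T1 mouse 2, 4T1 mouse 3 or each of the 66cl4 mice in turn, at -0.44 to -0.30 with adjusted p of 0.0546 to 0.0925.

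Pole, the leading strand polymerase, was higher in 66cl4 than in 67NR by 0.42 ± 0.13 (adjusted p = 0.0272). This ended without 66cl4 mouse 2, 67NR mouse 1 or 67NR mouse 2, with differences of 0.32 to 0.43 and adjusted p of 0.0671 to 0.102. Prim2, the other primase subunit, did not pass with its brightest probe set, at 0.53 ± 0.22 in 66cl4 against 67NR (adjusted p = 0.0868). Its second probe set passed in the fit over all probe sets, at 0.47 for the same difference (adjusted p = 0.0119) and -0.64 between 4T1 and 66cl4 (adjusted p = 0.00186), where the brightest had -0.41. Pcna, the sliding clamp, differed from 67NR by 0.15 in 4T1 and 0.17 in 66cl4, with 95% intervals of -0.10 to 0.40 and -0.08 to 0.42.

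Of 4 nucleotide supply genes, 1 passed in each comparison (25%, against 39.9%, 36.1% and 41.3% of all genes). Rrm2, the regulated subunit of ribonucleotide reductase, had 10.77, 11.26 and 10.91 in 4T1 tumours, 10.33, 10.74 and 10.30 in 66cl4 tumours, and 9.86, 10.20 and 10.64 in 67NR tumours. Every 4T1 tumour was above every other tumour, and 66cl4 overlapped with 67NR. It was higher in 4T1 than in 67NR by 0.74 ± 0.21 (1.67-fold, adjusted p = 0.0187), a call that ended without 4T1 mouse 2 (0.60, adjusted p = 0.0688), 67NR mouse 1 (0.56, adjusted p = 0.0694) or 67NR mouse 2 (0.73, adjusted p = 0.0564). Rrm1, the large subunit of the same enzyme, passed in no comparison with its brightest probe set, at -0.14 in 4T1 and 0.22 in 66cl4 against 67NR. Its second probe set passed in the fit over all probe sets, at -0.43 in 4T1 against 67NR (adjusted p = 0.0335) and -0.51 in 4T1 against 66cl4 (adjusted p = 0.0152), where the brightest had -0.36.

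Tk1, the cytosolic thymidine kinase of the salvage pathway, had 9.50, 9.48 and 9.77 in 4T1 tumours, 10.70, 10.92 and 10.85 in 66cl4 tumours, and 8.58, 8.89 and 9.56 in 67NR tumours. The 66cl4 tumours stood above every other tumour, and 67NR mouse 3 reached into the range of the 4T1 tumours. Its difference in 66cl4 against 67NR, 1.81 ± 0.22 (3.51-fold, adjusted p = 0.000191), was the largest of the 37 genes in any comparison. In 4T1 it was lower than in 66cl4, with a difference of -1.24 ± 0.22 (adjusted p = 0.00141), and the 0.57 ± 0.22 between 4T1 and 67NR did not pass (adjusted p = 0.0611). Tyms, thymidylate synthase of the alternative route to the same nucleotide, gave signals of 4.86 to 5.39 close to the control background, with 1 of 3 67NR tumours above it, and its differences are limited by that background.

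**Figure D3:**
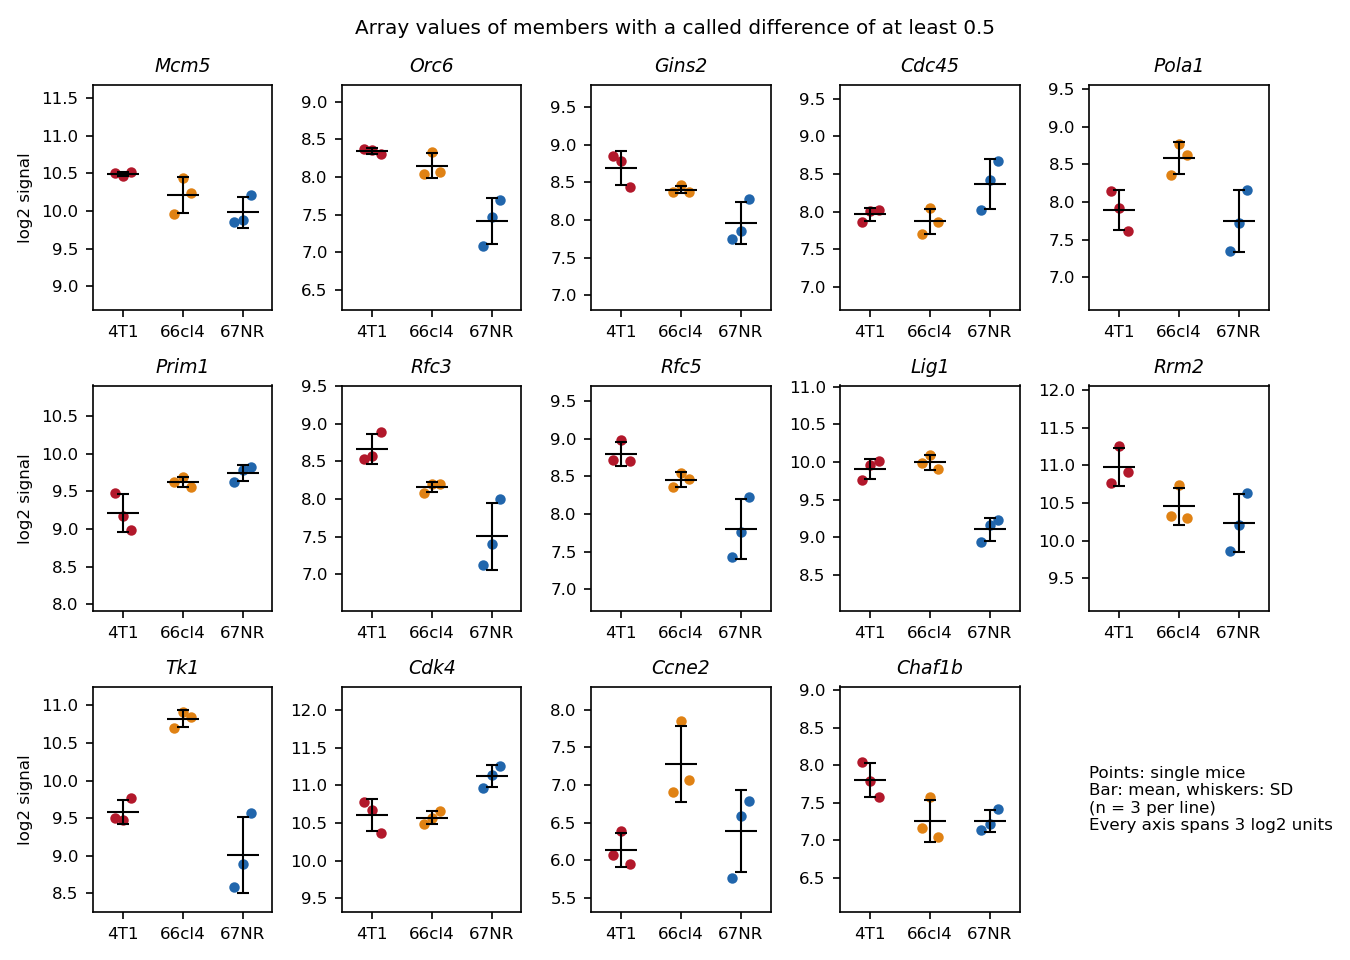
Log2 signal (vertical axis, spanning 3 units in each panel) of the 14 genes with a called difference of at least 0.5, 1 point per mouse, with the mean and SD of 3 mice per line. Lig1 and Orc6 show 67NR apart below, Cdk4 shows it apart above, and Tk1, Pola1 and Ccne2 show 66cl4 apart above.

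Among the 6 regulators of the G1/S transition none was higher and 2 were lower in 4T1 against 67NR, 1 was higher and 1 lower in 66cl4 against 67NR, and 2 were lower in 4T1 against 66cl4 (33.3% each time, against 39.9%, 36.1% and 41.3% of all genes). Cdk4, the kinase of cyclin D, had 10.78, 10.67 and 10.37 in 4T1 tumours, 10.49, 10.56 and 10.65 in 66cl4 tumours, and 10.97, 11.14 and 11.26 in 67NR tumours. All 67NR tumours lay above all others, and the other lines overlapped. It was lower than in 67NR, with a difference of -0.52 ± 0.13 in 4T1 (0.70-fold, adjusted p = 0.0105) and -0.55 ± 0.13 in 66cl4 (0.68-fold, adjusted p = 0.00851), and its 3 probe sets gave -0.52, -0.62 and -0.56 in 4T1. With the raw data number as a covariate both calls ended, at -0.18 in 4T1 (adjusted p = 0.516) and -0.34 in 66cl4 (adjusted p = 0.116). With the hybridization controls as a covariate the 4T1 call ended too, at -0.27 (adjusted p = 0.435). Ccnd1, the cyclin D1 partner of Cdk4, was at 0.32 ± 0.15 in 4T1 and 0.28 ± 0.15 in 66cl4 and did not pass.

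Ccne2, a cyclin E and partner of Cdk2, had 6.07, 6.39 and 5.94 in 4T1 tumours, 6.91, 7.85 and 7.07 in 66cl4 tumours, and 5.76, 6.59 and 6.79 in 67NR tumours. The 66cl4 tumours were above all others, with mouse 2 highest, and 4T1 overlapped with 67NR. It was lower in 4T1 than in 66cl4, with a difference of -1.14 ± 0.30 (adjusted p = 0.0126) and higher in 66cl4 than in 67NR by 0.89 ± 0.30 (1.86-fold, adjusted p = 0.0421). Leaving out 66cl4 mouse 2 ended the difference from 67NR (0.61, adjusted p = 0.145), as did leaving out 67NR mouse 1 (0.58, adjusted p = 0.139), 66cl4 mouse 3 (1.00, adjusted p = 0.0572) or 67NR mouse 2 (1.00, adjusted p = 0.0642). Ccne1, the other cyclin E, was at 0.22 in 4T1 and 0.34 in 66cl4 against 67NR and passed in no comparison.

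Cdk2, the kinase of cyclin E, ran from 8.32 to 8.49 in 4T1, from 8.65 to 8.95 in 66cl4 and from 8.65 to 8.82 in 67NR, with 4T1 apart below. It was lower in 4T1 than in 66cl4, with a difference of -0.41 ± 0.11 (adjusted p = 0.0147), which ended without 66cl4 mouse 2 (-0.33, adjusted p = 0.0591). The difference from 67NR, -0.32 ± 0.11 (adjusted p = 0.0433), ended in 6 of 9 refits, without 4T1 mouse 2, 4T1 mouse 3, 66cl4 mouse 3 or each of the 67NR mice in turn, at -0.35 to -0.27 with adjusted p of 0.06 to 0.137. E2f1, the activator E2F factor, gave differences from 67NR of -0.13 in 4T1 and -0.06 in 66cl4, with 95% intervals of -0.39 to 0.14 and -0.32 to 0.20. Its probe sets disagreed between 4T1 and 66cl4, with -0.07 for the brightest and 0.31 for the next.

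Of the 2 genes for histone supply and chromatin assembly, Chaf1b, a subunit of the factor that places histones on new DNA, had 8.04, 7.79 and 7.58 in 4T1 tumours, 7.16, 7.58 and 7.05 in 66cl4 tumours, and 7.13, 7.22 and 7.42 in 67NR tumours. The 4T1 tumours were highest, although 4T1 mouse 3 and 66cl4 mouse 2 were nearly level. It was higher in 4T1 than in 67NR by 0.55 ± 0.17 (adjusted p = 0.0257) and than in 66cl4 by 0.54 ± 0.17 (adjusted p = 0.0268). The difference from 67NR ended without 4T1 mouse 1, 4T1 mouse 2, 67NR mouse 1 or 67NR mouse 2 (0.43 to 0.55, adjusted p = 0.0569 to 0.085). That from 66cl4 ended without 4T1 mouse 1, 4T1 mouse 2, 66cl4 mouse 1 or 66cl4 mouse 3 (0.42 to 0.55, adjusted p = 0.0587 to 0.0971). Slbp, which binds the stem-loop of histone mRNAs, was at 0.27 in 4T1 and 0.26 in 66cl4 and did not pass.

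The 37 genes moved together between tumours of the same line. In 67NR mouse 1 all 37 lay below their 67NR mean, where 6700 of the 13410 genes tested did. In 67NR mouse 3, 36 of 37 lay above it, against 54.9% of all genes. In 66cl4 mouse 2, 36 of 37 lay above the 66cl4 mean, against 51.8% of all genes, and in 66cl4 mouse 1, 35 of 37 lay below it, against 51.9%. The 4T1 tumours were less uniform, with 19, 27 and 12 of 37 genes above the 4T1 mean in mouse 1, 2 and 3.

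The median deviation of the 37 genes from the line mean was 0.01, 0.07 and -0.08 in 4T1 mouse 1, 2 and 3, -0.10, 0.18 and -0.06 in 66cl4, and -0.21, 0.01 and 0.21 in 67NR. For all genes tested it lay between -0.03 and 0.02 on every array. The lowest of the 9 arrays was 67NR mouse 1 for 29 of the 37 genes, and the highest was 66cl4 mouse 2 for 16. Between pairs of the 37 genes the median correlation of these deviations was 0.67, with 645 of 666 pairs above 0, over 9 arrays that each share their RNA, labelling and scaling. The within-line SD had a median of 0.201 for the 37 genes, against 0.171 for all genes tested, so the spread between mice was not smaller for these genes.

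Other measures also differed between the 67NR tumours. Mouse 1 had the lowest number in the name of its raw data and mouse 3 the highest, the order of the median of the 37 genes. The mean log2 signal of the 18 hybridization control probe sets was 10.87, 11.16 and 11.47 in 67NR mouse 1, 2 and 3. T and NK cell markers, 8 of 10 measured, summed to 2009, 1298 and 1276 and endothelial markers to 5696, 4240 and 4674. Both were highest in mouse 1, the tumour where the replication genes were lowest. Other marker sets ran the other way. Mast cell markers, at 17445, 18254 and 24446, and neutrophil markers, at 1959, 3719 and 2250, were lowest in mouse 1. In 66cl4 the hybridization controls were 10.64, 10.84 and 11.10, with mouse 2 between the others. T and NK markers were 700, 499 and 595 there, and mast cell markers 622, 765 and 657. The part of these measures in the shared movement was not tested.

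**Figure D4:**
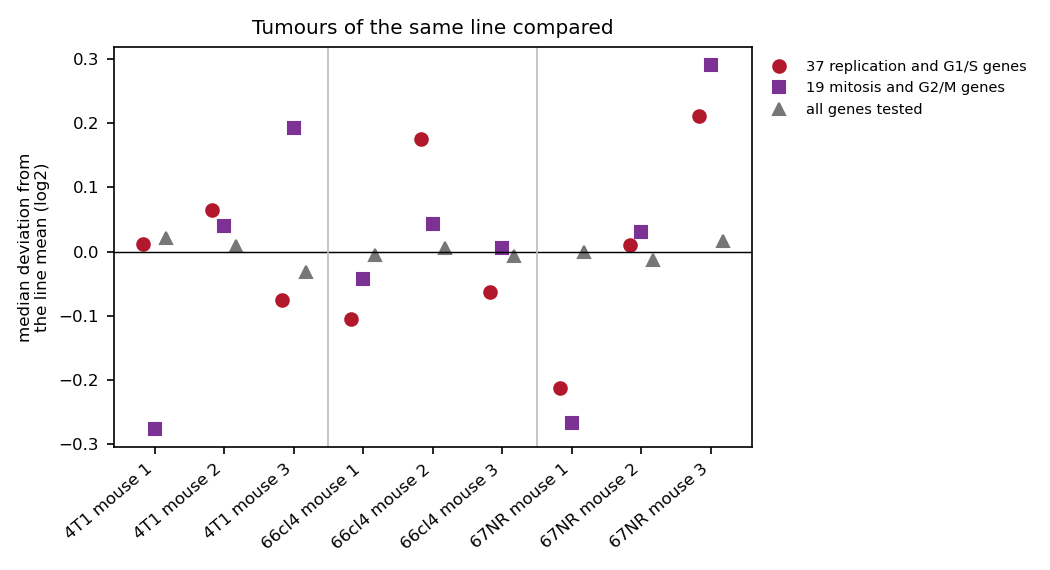
Median deviation from the line mean (vertical axis, log2) of the 37 replication and G1/S genes, of 19 mitosis and G2/M genes and of all 13410 genes tested, for each tumour. Both gene groups lie low in 67NR mouse 1 and high in 67NR mouse 3, at -0.21 and 0.21 for the 37 genes, while in 4T1 mouse 1 the mitosis genes lie at -0.28 and the 37 genes at 0.01.

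Genes of mitosis and G2/M, which act later in the cycle, showed the same order in 67NR, with median deviations of -0.27, 0.03 and 0.29. In 4T1 they parted from the replication genes. All 19 mitosis genes lay below the 4T1 mean in mouse 1, where 18 of the 37 replication and G1/S genes did, and 18 of 19 lay above it in mouse 3, where 12 of 37 did.

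**Figure D5:**
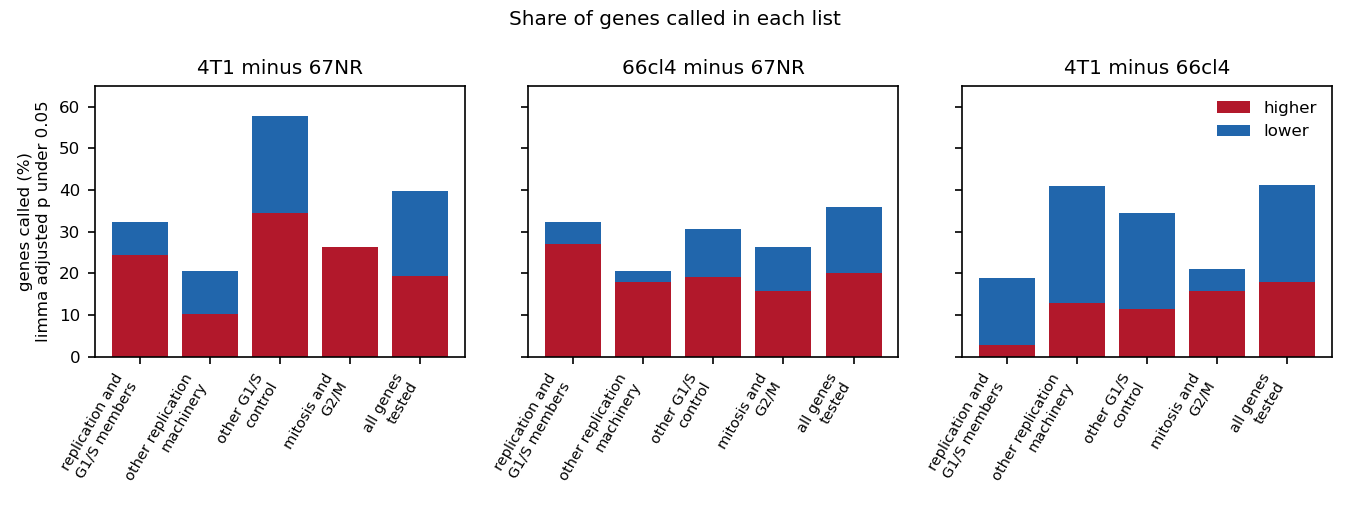
Share of genes called higher (red) and lower (blue) in each list and over all genes tested, in percent (vertical axis), for the 3 comparisons. In 4T1 minus 66cl4 the 37 genes reach 18.9%, against 41.3% of all genes tested.

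The pathway beyond the 37 genes was followed in 3 lists of further genes. Of 39 other genes of the replication machinery, 4 were higher and 4 lower in 4T1 against 67NR, 7 higher and 1 lower in 66cl4 against 67NR, and 5 higher and 11 lower in 4T1 against 66cl4 (20.5%, 20.5% and 41%, against 39.9%, 36.1% and 41.3% of all genes). Hells, a chromatin remodeller, was higher in 4T1 than in both other lines, by 1.09 ± 0.13 over 67NR (adjusted p = 0.000171) and 0.68 ± 0.13 over 66cl4 (adjusted p = 0.00279). It was also higher in 66cl4 than in 67NR, by 0.41 ± 0.13 (adjusted p = 0.0372). Rpa1, the large subunit of the complex that coats single-stranded DNA, was lower in 4T1, with a difference of -0.83 ± 0.11 against 67NR (adjusted p = 0.000333) and -0.64 ± 0.11 against 66cl4 (adjusted p = 0.00158). Pold1, the catalytic subunit of the lagging strand polymerase, was higher in 66cl4 than in 67NR by 0.47 ± 0.11 (adjusted p = 0.0102). It was lower in 4T1 than in 66cl4, with a difference of -0.78 ± 0.11 (adjusted p = 0.000503). Wdhd1, a fork scaffold, was higher in 66cl4 than in 67NR by 0.89 ± 0.11 (adjusted p = 0.000268). Wdhd1 was also higher in 4T1 than in 67NR, by 0.44 ± 0.11 (adjusted p = 0.011). Pola2, the partner subunit of Pola1, was the 1 gene of the list lower in 66cl4 than in 67NR, with a difference of -0.65 ± 0.14 (adjusted p = 0.0047), whereas Pola1 was higher there.

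Of 26 other genes of G1/S control, 9 were higher and 6 lower in 4T1 against 67NR, 5 higher and 3 lower in 66cl4 against 67NR, and 3 higher and 6 lower in 4T1 against 66cl4 (57.7%, 30.8% and 34.6%, against 39.9%, 36.1% and 41.3% of all genes). Cdkn2a, which encodes the Cdk4 inhibitor p16 and the p53 activator Arf, had 3.69, 3.79 and 4.02 in 4T1 tumours, 3.81, 4.09 and 3.87 in 66cl4 tumours, and 6.29, 6.90 and 6.68 in 67NR tumours. It was above the control background on all 67NR arrays and on no array of the other lines. Against the highest control probe set of each array, it was at least 3.14-fold lower in 4T1 and at least 3.28-fold lower in 66cl4 than in 67NR. These bounds were not tested. The limma test of the measured log2 differences, -2.79 and -2.70, gave adjusted p of 1.6e-06 and 3.57e-06. The probe set does not separate the 2 products of the gene.

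Cdk6, the other kinase of cyclin D, was lower than in 67NR, with a difference of -1.18 ± 0.13 in 4T1 (adjusted p = 9.04e-05) and -0.72 ± 0.13 in 66cl4 (adjusted p = 0.00215), as Cdk4 was. Rb1, the retinoblastoma protein, was lower in 4T1 than in 67NR, with a difference of -0.81 ± 0.13 (adjusted p = 0.00074) and higher in 66cl4 by 0.38 ± 0.13 (adjusted p = 0.0386). Its difference in 4T1 against 66cl4 was -1.19 ± 0.13 (adjusted p = 6.62e-05). E2f6, a repressor E2F, was higher in 4T1 by 0.73 ± 0.14 (adjusted p = 0.0025) and in 66cl4 by 1.54 ± 0.14 (adjusted p = 3.89e-05). E2f7, another repressor, was lower in 66cl4 than in 67NR, with a difference of -0.42 ± 0.13 (adjusted p = 0.0365). In 4T1 it was lower still, with differences of -0.80 ± 0.13 against 67NR (adjusted p = 0.0012) and -0.38 ± 0.13 against 66cl4 (adjusted p = 0.0456). The genes higher in 4T1 than in 66cl4 were Cdc25a, a phosphatase that activates Cdk2, at 0.57 ± 0.16 (adjusted p = 0.0192), Tfdp1, the partner of E2F factors, at 0.44 ± 0.14 (adjusted p = 0.0322), and E2f4, at 0.49 ± 0.17 (adjusted p = 0.0433).

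Of 19 genes of mitosis and G2/M, 5 were higher and none lower in 4T1 against 67NR, 3 higher and 2 lower in 66cl4 against 67NR, and 3 higher and 1 lower in 4T1 against 66cl4 (26.3%, 26.3% and 21.1%, against 39.9%, 36.1% and 41.3% of all genes). Kif11, a spindle kinesin, was higher than in 67NR by 1.21 ± 0.26 in 4T1 (adjusted p = 0.00425) and by 1.28 ± 0.26 in 66cl4 (adjusted p = 0.00381). Birc5 (survivin) was higher in 66cl4 than in 67NR by 1.14 ± 0.18 (adjusted p = 0.000928). It was lower in 4T1 than in 66cl4, with a difference of -1.01 ± 0.18 (adjusted p = 0.00149). Tk1 and Ccne2 had the same calls. Cdk1, the mitotic kinase, and Top2a, the topoisomerase that untangles chromosomes, were lower in 66cl4 than in 67NR, with differences of -0.59 ± 0.15 (adjusted p = 0.0127) and -0.45 ± 0.13 (adjusted p = 0.0233).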

How the data were processed

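Total RNA of the captured tumour area of 9 mice, 3 for each line, was hybridized to Affymetrix arrays, 1 for each mouse. The authors deposited log2 signals for 45101 probe sets. Their range, 2.42 to 14.80, gave the log2 scale. The steps of probe summary and array normalization are not stated in the labels. The 75th percentiles of the arrays differed by 0.15, so the values were used as deposited. The number of arrays limits the precision.

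Symbols came from the platform annotation, updated through Entrez identifiers to RefSeq (GRCm38.p6), with 34754 of 34958 probe sets that name 1 gene matched. Genes whose probe set exceeded the 40th percentile on 3 or more arrays were tested. A group means model over the 9 arrays was fitted with limma 3.58.1 in R 4.3.3 (6 residual and 3.63 prior degrees of freedom, two-sided, no covariate), with Benjamini-Hochberg adjustment over 13410 genes. Every adjusted p and interval is from limma. With 3 mice against 3, exact permutation allows no p below 0.1. Background was the highest of 27 bacterial control probe sets on each array, 4.83 to 5.08. The brightest probe sets of Ccne1, Cdk4, Fen1, Mcm5 and Rrm2 are of a class (_x_at) with probes that may also match other transcripts. Promoters were scanned in Python 3.11.15.

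The 37 genes and the lists of other genes were chosen with earlier results of these data known. Values of every array are given for genes called with a difference of at least 0.5 and for the gene with the smallest F-test p of each role. Up to 4 genes with the smallest F-test p, and those called against the majority where there were at most 3, are named from each other list. Alternatives changed the scaling, probe set, filter, samples, variance model, covariates, replicate block and arrays.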

Additional observations from a re-analysis of the deposited data

How the results depend on the processing

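Over 20 alternatives, 2049 of 2208 single-gene results kept their side of the threshold, 104 lost a call and 55 gained a call. No called difference changed sign. Differences that were not called could change sign, as Mcm4 did in 4T1 against 67NR, from 0.15 to as low as -0.13. With the raw data number as a covariate the genes called were 5 instead of 12 in 4T1 against 67NR (all genes 19.8%), 4 instead of 7 in 4T1 against 66cl4 (36.8%) and 9 instead of 17 by the F-test (48.6%), and the median differences were 0.43 (4T1 against 67NR) and 0.40 (66cl4 against 67NR). With the hybridization controls as a covariate the median in 4T1 against 67NR was 0.50, 4 genes were called in 4T1 against 66cl4 (all genes 28.9%), and 15 were in 66cl4 against 67NR (40.5%, against 28.8%), which put the 37 genes above all genes there. Neither covariate overlapped between 4T1 and 67NR arrays, and the raw data number did not overlap between 66cl4 and 67NR arrays. There the fit separates line from covariate only through the slope within lines. The cause of the shifts under these covariates was not tested. With no filter on low values all genes were at 29.9%, 26.7% and 30.5% in 4T1 against 67NR, 66cl4 against 67NR and 4T1 against 66cl4, and the 37 genes at 32.4%, 32.4% and 18.9%. The same members of the 37 were called there as with the filter, while all genes numbered 18194 instead of 13410. Leaving out 1 array gave 7 to 12 genes called and a median of 0.15 to 0.34 in 4T1 against 67NR, 6 to 15 and 0.11 to 0.35 in 66cl4 against 67NR, 3 to 10 and -0.04 to 0.07 in 4T1 against 66cl4, and 11 to 18 by the F-test. A refit with 2 mice in a line assumes that they vary like the other lines. The labels do not say whether same-numbered mice of different lines share more than a number. Their deviations correlated at -0.11 to 0.16, which cannot decide it, since different-numbered mice were not compared. With that number as a replicate block 13, 13 and 7 genes were called in 4T1 against 67NR, 66cl4 against 67NR and 4T1 against 66cl4. These were 35.1%, 35.1% and 18.9%, against 37.7%, 33.6% and 38.6% of all genes. The F-test called 16 (43.2%, against 53.4%). Both array scalings ended the call of Rfc3 in 66cl4 against 67NR. With only the 6 arrays of a pair of lines no F-test over 3 lines exists.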
